A study of Mus musculus with 4 samples.

Results

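The antiviral interferon-stimulated genes described here are 43 genes whose products hold back viruses or carry the type I interferon signal, and their counts were taken from J558 allograft tumours of mice treated with TAK-931 or vehicle. They were chosen by name, as the rows of the gene tables that carry the listed symbols (the IFIT, OAS and MX families, other antiviral effectors, and the transducers Stat2 and Irf9), and they make up 43 of the 24421 gene symbols in the tables. J558 is a mouse plasmacytoma line, a tumour of antibody-secreting B-lineage cells that the labels call a B lymphocyte, and TAK-931 inhibits CDC7, a kinase that fires origins of DNA replication. Female BALB/c mice of 4 weeks of age received J558 cells under the skin of the flank and then, by mouth each day, methylcellulose (the Vehicle group) or TAK-931 at 60 mg/kg (the TAK-931 group), and all tumours were taken on day 6. Vehicle-1, Vehicle-2, TAK-931-1 and TAK-931-2 are the 4 bulk RNA libraries, 2 for each group. The mice carried no engineered allele according to the labels, and both groups shared the same line and host, so each tumour holds J558 cells together with the host's own immune, vessel and connective tissue cells. The labels do not say that the libraries of a group came from separate mice. The study's text speaks of vehicle-1 and TAK-931-1 as allografts picked as representatives among individual mice, and the origin of the second library of each group is not given in the sources used here, so p-values measure only the spread between these libraries. The comparison addresses how TAK-931 altered the interferon programme of the whole tumour.

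Type I interferons (the alpha family, beta and relatives) bind the IFNAR1 and IFNAR2 receptor, whose kinases JAK1 and TYK2 pass the signal on by phosphorylation. STAT2 and IRF9 act in the complex ISGF3, which enters the nucleus and binds the interferon-stimulated response element, a short repeat of GAAA letters before the genes it switches on. Interferon gamma, made chiefly by T and NK cells, uses another receptor and other response letters, the gamma-activated sites, and many genes answer to both. Nearly all cell types can respond, tumour cells and leukocytes alike.

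The response element can be seen in the promoters. RefSeq promoter sequence on GRCm38.p6, from 250 bases before to 50 bases after each annotated start, was at hand for 32 of the 43 genes. The response element was searched as GAAA, any 2 letters and GAAA again, on either strand (TTTC, any 2 letters and TTTC on the other). It was present in 14 of these 32 (43.8%), against 3.99% of 27025 genes with an entry and 3.88% of the 10348 of them that were tested. The gamma-activated letters TTCNNNGAA were present in 9 of 32 (28.1%), against 9.55% of all genes and 8.43% of tested ones, and in 2 genes (Bst2 and Ifitm3) matches of both kinds shared bases. A match of letters describes the sequence and does not show binding. The 8 promoters printed here are those of tested genes in which the element lay within the 160 bases before the start; they are shown because they carry the motif that was searched, with each match in capitals, 5′ to 3′ on the strand of the gene, ending at the base before its start. Isg15 has 3 overlapping matches (chr4:156200819-156200978, minus strand). Ifit1 (chr19:34640729-34640888, plus strand) and Ifit3 (chr19:34583369-34583528, plus strand) have 2 each. Bst2 (chr8:71537473-71537632, minus strand) has 2 overlapping ones and Ddx60 (chr8:61927927-61928086, plus strand) has 2. Oas3 (chr5:120777660-120777819, minus strand), Rsad2 (chr12:26456453-26456612, minus strand) and Trim30a (chr7:104465194-104465353, minus strand) have 1 each.
Isg15: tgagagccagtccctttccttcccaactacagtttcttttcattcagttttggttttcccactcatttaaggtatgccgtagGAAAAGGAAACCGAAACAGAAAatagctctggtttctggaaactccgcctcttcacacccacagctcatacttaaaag
Ifit1: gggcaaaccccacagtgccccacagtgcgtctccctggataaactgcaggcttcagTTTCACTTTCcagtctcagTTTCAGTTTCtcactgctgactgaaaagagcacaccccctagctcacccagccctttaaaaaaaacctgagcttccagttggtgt
Ifit3: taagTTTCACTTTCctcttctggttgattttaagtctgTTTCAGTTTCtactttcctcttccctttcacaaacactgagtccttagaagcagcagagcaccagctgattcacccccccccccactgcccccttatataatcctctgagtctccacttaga
Bst2: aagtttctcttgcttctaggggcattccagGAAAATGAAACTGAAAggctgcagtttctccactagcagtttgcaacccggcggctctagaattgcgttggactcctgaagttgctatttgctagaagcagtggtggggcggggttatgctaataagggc
Ddx60: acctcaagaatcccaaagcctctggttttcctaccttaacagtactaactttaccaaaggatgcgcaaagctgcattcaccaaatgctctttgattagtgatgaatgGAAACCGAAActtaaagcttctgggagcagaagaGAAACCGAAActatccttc
Oas3: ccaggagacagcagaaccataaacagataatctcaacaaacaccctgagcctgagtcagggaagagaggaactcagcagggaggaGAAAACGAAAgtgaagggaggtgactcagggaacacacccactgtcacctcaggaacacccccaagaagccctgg
Rsad2: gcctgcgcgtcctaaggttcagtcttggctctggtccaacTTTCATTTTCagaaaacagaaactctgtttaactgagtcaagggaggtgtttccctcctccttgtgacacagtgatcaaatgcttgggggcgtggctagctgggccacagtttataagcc
Trim30a: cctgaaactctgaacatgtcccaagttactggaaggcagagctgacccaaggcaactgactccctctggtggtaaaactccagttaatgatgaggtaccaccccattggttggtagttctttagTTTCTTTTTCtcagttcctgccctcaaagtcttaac

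The 12 tested genes with the element letters had a median log2 fold change of 2.53 (1.25 to 4.02), and the 18 tested genes with an entry and without them had 2.25 (-0.28 to 4.23). Ifit2, which had the highest fold change of all, held no match in this window. The ranges of genes with and without the letters overlapped.

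Depth was between 16487902 and 19589339 counts per library, which puts the 3 counts that a count of 0 allows at between 0.158 and 0.180 CPM (the count of a gene relative to the TMM-scaled size of its library). Small counts were mostly even in all 4 libraries (17.9% to 23.9% of counts from 1 to 20 were odd), as if both mates of a pair were counted, so this limit covers counting error only and is too low. The vehicle-treated libraries resembled each other and the TAK-931-treated libraries did not: across 13669 tested genes, log2 CPM correlated with a Pearson's r of 0.977 between the vehicle libraries and 0.865 between the TAK-931 libraries, and the biological coefficient of variation was 0.132 and 0.579. TAK-931-1 stood apart (r of 0.791 to 0.865 with the other libraries), so values are given for each library and the main results also without it. Markers of host cells differed alongside. Summed over 8 T cell genes, the level was 31.2, 21.5, 1258 and 90.1 CPM in Vehicle-1, Vehicle-2, TAK-931-1 and TAK-931-2, over 12 monocyte and macrophage genes 682, 555, 9556 and 1751 CPM, and over 5 fibroblast genes 1378, 1532, 11284 and 3873 CPM. Other sums were high in TAK-931-1 alone: in the same order, 5 endothelial genes summed to 224, 240, 771 and 227 CPM, 5 skeletal muscle genes to 81.6, 85.8, 556 and 11.4 CPM, and 4 adipocyte genes to 45.1, 67.7, 263 and 28.6 CPM. Plasma cell genes (8, with Jchain, Sdc1 and Xbp1) summed to 9717, 10286, 4801 and 13646 CPM. Mature B cell genes (6) summed to 35.6, 35.4, 56.9 and 79.2 CPM, with Cd22 higher at an unadjusted p under 0.05 at 1.42, 1.32, 41.7 and 11.4 CPM, Ms4a1 at 30.5, 30.2, 13.3 and 52.7 CPM and the B cell factor Pax5 at 0 counts in every library. In bulk RNA, fewer cells of a type and less RNA per cell cannot be told apart, and the part of these cells in the interferon-stimulated genes was not tested.

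Of the 43 genes, 41 had enough counts to be tested, and as a group they stood higher in the TAK-931-treated allografts. Their median log2 fold change was 2.48, where the median of all 13669 tested genes was 0.02. Both TAK-931 libraries were above both vehicle libraries for 37 of the 41 (90.2%, against 30.0% of all tested genes), and 0 of 41 were below both (32.7% of all tested genes). The fold change was positive for 39 and negative for Irf9 and Isg20. It exceeded 3 on the log2 scale for 12 genes, lay from 2 to 3 for 16, from 1 to 2 for 6 and under 1 for 7.

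By the edgeR quasi-likelihood test with Benjamini-Hochberg adjustment over all tested genes, 0 of the 41 passed an adjusted p of 0.05 (background 0%), with adjusted p-values from 0.275 to 0.759. At an unadjusted p under 0.05, 34 of 41 were higher (82.9%, background 11.6%) and 0 were lower (background 6.55%). With 2 libraries against 2, an exact two-sided permutation test cannot go below 0.333. DESeq2 called 32 of the 41 higher (background 9.21%) and 0 lower (background 1.11%) at an adjusted p under 0.05, and limma-voom called 0. A fit with the replicate number as a block, which the labels do not establish as a pairing, called 10 higher (background 1.03%) and 0 lower (background 0.0219%). Calls turned on the treated libraries: without TAK-931-1, edgeR called 32 higher (background 12.6%) and 1, Irf9, lower (background 16.1%), and without TAK-931-2 it called 39 higher (background 28.2%) and 1, Isg20, lower (background 29.8%), with the lone treated library taken to vary like the vehicle pair. The median log2 fold change was 1.64 without TAK-931-1 and 2.95 without TAK-931-2.

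**Figure D1:**
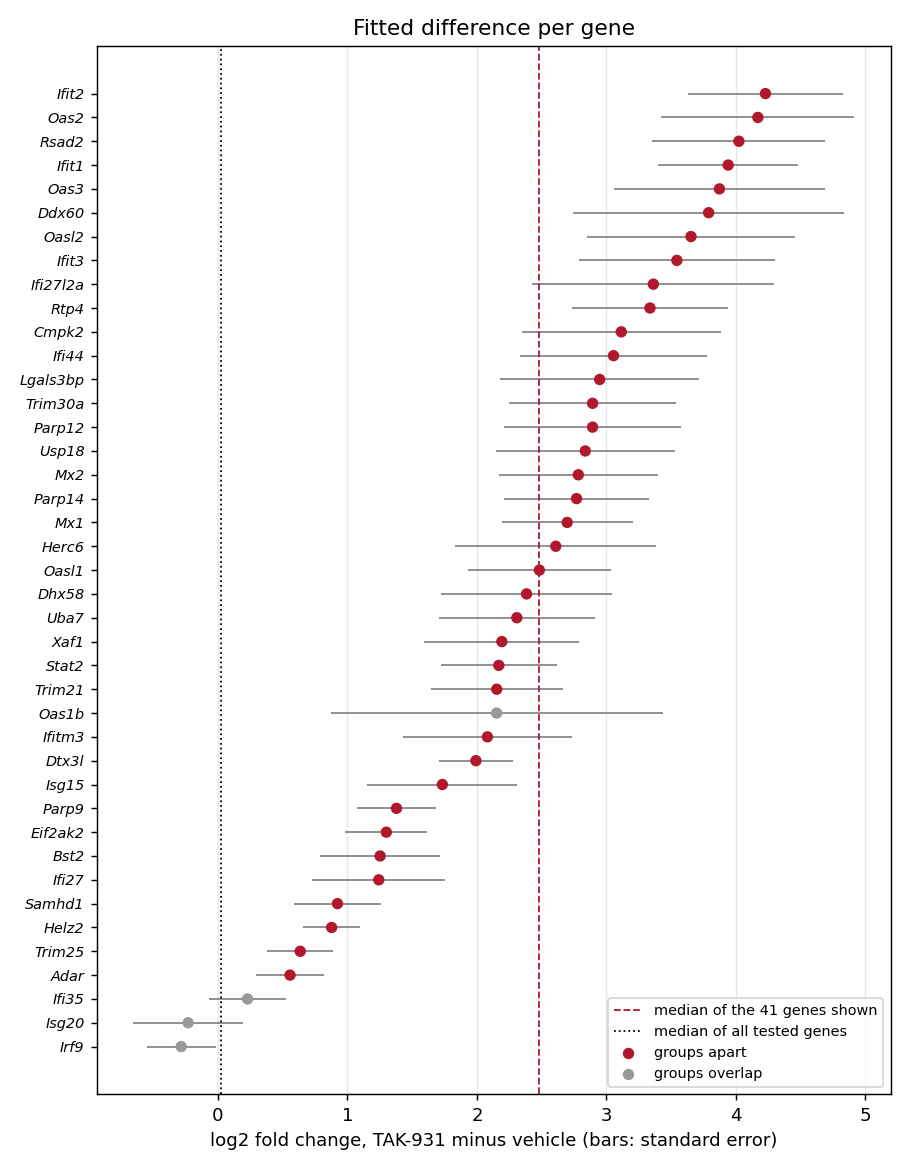
Fitted log2 fold change of TAK-931 minus vehicle for the 41 tested genes, with bars for the standard error (2 libraries per group), red points where the groups were apart and grey points where they overlapped. The genes have a median of 2.48 (dashed line) against 0.02 for all tested genes (dotted line), from 4.23 for Ifit2 to -0.28 for Irf9, and 4 genes overlap.

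The genes described next are given by role. Levels are TMM-scaled CPM in the order Vehicle-1, Vehicle-2, TAK-931-1 and TAK-931-2, differences are log2 fold changes ± their standard error, and positions are the gene spans in the authors' tables (mm10), over whose exons reads were counted.

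Of the transducers, Stat2 and Irf9 did not behave alike, although their proteins act in the same complex. Stat2 (chr10:128270576-128292849), the subunit that brings the activating domain, was at 29.2, 29.6, 182 and 82.6 CPM, a difference of 2.17 ± 0.45. Both treated tumours exceeded the vehicle pair, whose values were nearly equal. Irf9 (chr14:55603985-55610030), the DNA-binding subunit, was at 70.6, 76.7, 71.3 and 49.7 CPM, a difference of -0.28 ± 0.27 with overlapping groups. TAK-931-1 lay between the vehicle values for Irf9 and TAK-931-2 lay below them.

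The IFIT proteins seize viral RNA through its altered 5′ end and stop its translation, and their genes lie together on chromosome 19. Their median log2 fold change of 3.94 was the highest of the role groups, and 3 of 3 were higher at an unadjusted p under 0.05 (background 11.6%). Ifit2 (chr19:34550694-34576534) was at 6.76, 2.76, 112 and 66.7 CPM (4.23 ± 0.60). Ifit1 (chr19:34640889-34650009) was at 3.44, 1.68, 48.2 and 30.6 CPM (3.94 ± 0.54). Ifit3 (chr19:34583529-34588982) was at 6.17, 2.04, 65.9 and 30.0 CPM (3.54 ± 0.75), and 31.7% of the 100-base stretches of its transcripts are shared with Ifit3b, so its count is uncertain where unique placement failed. For each of the 3, Vehicle-1 was above Vehicle-2 by 2.05- to 3.03-fold, and even TAK-931-2, the lower treated library, was at 7.31 to 14.0 times the vehicle mean.

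OAS enzymes sense double-stranded RNA and make short adenylate chains that switch on the RNA-cutting enzyme RNase L. Of 7 genes on chromosome 5, 5 were tested, 4 of them higher at an unadjusted p under 0.05 (background 11.6%). Oas2 (chr5:120730333-120749848) was at 3.56, 2.52, 84.7 and 24.9 CPM, a difference of 4.17 ± 0.75. Oas3 (chr5:120753098-120777659), the longest enzyme of the family, was at 1.66, 2.04, 43.1 and 11.2 CPM (3.87 ± 0.82). Each was several times higher in TAK-931-1 than in TAK-931-2, by 3.41- and 3.85-fold. The OAS-like gene Oasl2 (chr5:114896934-114912245) was at 11.9, 3.84, 142 and 55.8 CPM (3.65 ± 0.80). Its neighbour Oasl1 (chr5:114923240-114937911), whose protein restrains the translation of Irf7, was at 8.78, 5.63, 56.3 and 24.3 CPM (2.48 ± 0.55). Both OAS-like genes were higher in Vehicle-1 than in Vehicle-2, and both groups stayed apart.

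Oas1b (chr5:120812635-120824160) had the fewest counts of the tested genes and was at 0.830, 0.240, 4.21 and 0.583 CPM (2.15 ± 1.28). Only TAK-931-1, with 80 counts, exceeded both vehicle libraries (14 and 4 counts), and TAK-931-2 with 10 counts lay between them. Oas1a and Oas1g had 0 counts in all 4 libraries, which allows up to 0.180 CPM, in Vehicle-2, a limit that is too low where both mates were counted. They share 40.9% and 31.3% of their 100-base transcript stretches with each other, and the rest of each transcript is its own.

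ISG15 is a small ubiquitin-like protein that is fixed to newly made proteins, UBA7 is the enzyme that activates it, HERC6 the mouse ligase that attaches it, and USP18 removes it and also blocks the IFNAR2 chain. The 4 genes stood higher together (4 of 4 at an unadjusted p under 0.05, background 11.6%). Isg15 (chr4:156199424-156200818) was at 18.6, 8.63, 61.3 and 29.3 CPM, a difference of 1.73 ± 0.58, the smallest of the 4. Uba7 (chr9:107975567-107984056) was at 18.2, 12.5, 113 and 39.3 CPM (2.31 ± 0.60). Usp18 (chr6:121245906-121270917), the brake of the system, was at 4.27, 1.80, 29.6 and 13.9 CPM (2.84 ± 0.69). Herc6 (chr6:57580992-57665136) was at 6.05, 3.48, 45.6 and 12.6 CPM (2.61 ± 0.77), with 10.3% of its transcript stretches shared with Gm45193. The groups were apart for all 4 genes (background 30.0%), and Vehicle-1 was above Vehicle-2 for each.

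MX proteins are dynamin-like GTPases that trap viral nucleocapsids, MX1 of the mouse in the nucleus and MX2 in the cytoplasm. Mx1 (chr16:97447035-97462906) was at 6.29, 5.69, 53.9 and 23.8 CPM, a difference of 2.70 ± 0.51. Mx2 (chr16:97536081-97560901) was at 1.42, 1.14, 11.6 and 6.13 CPM (2.78 ± 0.61). The vehicle values of each were close to each other, and both treated tumours were well above them.

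Bst2 and Ifitm3 act at membranes, where BST2 (tetherin) holds budding virus on the cell and IFITM3 blocks fusion in endosomes. They had the highest levels per kilobase of exon in the vehicle-treated tumours, 137 CPM per kilobase for Bst2 and 115 for Ifitm3, where the median of the 41 genes was 3.66. Ifitm3 (chr7:141009590-141010744) was at 87.8, 60.8, 480.2 and 148 CPM, a difference of 2.08 ± 0.65. Bst2 (chr8:71534262-71537437) was at 110.4, 98.8, 347 and 151 CPM (1.25 ± 0.46). TAK-931-2 was above the vehicle mean by 2.00-fold for Ifitm3 and 1.45-fold for Bst2, and TAK-931-1 by 6.47- and 3.32-fold.

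Ifi27 and Ifi27l2a, which encode small hydrophobic proteins of organelle membranes, lie on opposite strands and share 103 bases of exon, and without a stated strand setting reads from that stretch cannot be assigned. Ifi27l2a (chr12:103433873-103443680) was at 15.4, 18.3, 297 and 50.1 CPM, a difference of 3.36 ± 0.93. Its treated libraries differed by 5.92-fold, and without TAK-931-1 its log2 fold change was 1.57. Ifi27 (chr12:103434189-103440245) was at 18.0, 27.5, 75.4 and 32.1 CPM (1.24 ± 0.51), and it did not reach an unadjusted p under 0.05. These 2 genes and the transducers were the role groups in which no gene was higher in Vehicle-1 than in Vehicle-2.

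Of the 6 enzymes of nucleotides and RNA, 4 were higher at an unadjusted p under 0.05 (background 11.6%), and Rsad2 and Cmpk2 had the greatest differences. Rsad2 (chr12:26442743-26456452), whose product viperin makes a nucleotide that ends viral RNA chains, was at 1.78, 2.64, 52.7 and 19.3 CPM, a difference of 4.02 ± 0.67. The adjacent gene Cmpk2 (chr12:26469215-26479837), a mitochondrial nucleotide kinase, was at 2.61, 1.02, 22.0 and 9.57 CPM (3.11 ± 0.77). These neighbours stood 12763 bases apart and both treated tumours exceeded both vehicle tumours for each. Eif2ak2 (chr17:78852550-78882572) encodes PKR, a kinase that stops translation when it meets double-stranded RNA, and it was at 21.6, 18.5, 60.2 and 38.7 CPM (1.30 ± 0.32). Samhd1 (chr2:157097529-157135222), which breaks down deoxynucleotides, was at 201, 174, 442 and 268 CPM (0.92 ± 0.34).

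Adar (chr3:89715022-89753455), the enzyme that turns adenosine into inosine in double-stranded RNA, was at 142, 135, 172 and 236 CPM (0.56 ± 0.26). TAK-931-2 held the highest value here, and the difference was 0.77 without TAK-931-1 and 0.29 without TAK-931-2. Isg20 (chr7:78913424-78920396), an RNA exonuclease, was at 66.7, 70.7, 36.9 and 80.2 CPM (-0.23 ± 0.42). Its treated libraries lay on opposite sides of the vehicle pair, TAK-931-1 below and TAK-931-2 above, and its difference was 0.22 without TAK-931-1. Between the treated libraries, plasma cell genes stood in the same order as Isg20, with TAK-931-1 above TAK-931-2 for 0 of 8 (50.4% of all tested genes). Against vehicle, 5 of the 8 had the pattern of Isg20, and 3 were under both vehicle libraries in both treated libraries. Their relation to Isg20 was not tested.

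The RNA helicases were higher at an unadjusted p under 0.05 for 3 of 3 (background 11.6%). Ddx60 (chr8:61928087-62037701), a helper of viral RNA sensing, had the lowest vehicle level per kilobase of all (0.269 CPM per kilobase) and was at 1.66, 1.56, 38.7 and 6.01 CPM, a difference of 3.79 ± 1.05. Much of that difference came with TAK-931-1, which was at 24.0 times the vehicle mean where TAK-931-2 was at 3.73 times. Dhx58 (chr11:100694884-100704271), which encodes the RIG-I relative LGP2, was at 7.71, 5.27, 51.1 and 16.7 CPM (2.38 ± 0.66). Helz2 (chr2:181227615-181242027), a helicase that acts as a nuclear coactivator, was at 89.4, 95.6, 157 and 183 CPM (0.88 ± 0.22). The treated libraries of Helz2 were near each other, and TAK-931-2 was the higher.

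PARP9 and DTX3L form a ubiquitin ligase, and PARP12 and PARP14 attach ADP-ribose to proteins. All 4 genes were higher at an unadjusted p under 0.05 (background 11.6%). Dtx3l (chr16:35926515-35939027) was at 34.2, 31.2, 155 and 105 CPM, a difference of 1.99 ± 0.28. Its partner Parp9 (chr16:35938470-35972621) was at 48.8, 49.6, 157 and 98.8 CPM (1.38 ± 0.30). The pair lie on opposite strands and share 334 bases of exon, which leaves reads from there unassigned to a strand. Parp14 (chr16:35832878-35871382), on the same stretch of chromosome 16, was at 32.8, 20.3, 255 and 106 CPM (2.77 ± 0.56). Parp12 (chr6:39086412-39118349) was at 9.96, 6.77, 95.4 and 29.0 CPM (2.89 ± 0.68). For all 4 genes the groups were apart (background 30.0%), with Parp9 and Dtx3l the steadiest between the treated libraries (1.59- and 1.47-fold) and Parp12 the least steady (3.29-fold).

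The TRIM proteins are ubiquitin ligases. Trim25 (chr11:88999403-89020293), which activates the RNA sensor RIG-I, was at 155, 157, 207 and 277 CPM (0.64 ± 0.26). Its groups were apart, with TAK-931-2 highest, and it did not reach an unadjusted p under 0.05. Trim30a (chr7:104409026-104465193), a rodent gene whose product dampens NF-kappaB signalling, was at 14.8, 8.03, 124 and 45.5 CPM (2.89 ± 0.65). Trim21 (chr7:102557920-102565482), the cytosolic receptor for antibody, was at 6.82, 4.20, 31.8 and 17.3 CPM (2.15 ± 0.51). Both of these, 2 of the 3 TRIM genes, were higher at an unadjusted p under 0.05 (background 11.6%).

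Of the 5 remaining genes, 4 were higher at an unadjusted p under 0.05 (background 11.6%). Lgals3bp (chr11:118392752-118401931), a secreted galectin-binding glycoprotein, was at 72.0, 47.2, 733 and 187 CPM, a difference of 2.95 ± 0.77. Ifi44 (chr3:151730923-151749959), a microtubule-associated antiviral protein, was at 15.7, 8.39, 153 and 47.3 CPM (3.05 ± 0.72). Rtp4 (chr16:23609919-23614222), a receptor chaperone that restricts flaviviruses, was at 7.83, 6.47, 107 and 37.7 CPM (3.34 ± 0.60), with 9.28% of its transcript stretches shared with Gm45338. Xaf1 (chr11:72301629-72313733), an antagonist of the apoptosis inhibitor XIAP, was at 9.01, 5.63, 48.1 and 18.8 CPM (2.19 ± 0.60). For these 4 of the 5 genes the lower treated library was above the higher vehicle library (background 30.0%). Ifi35 (chr11:101448412-101458701), which binds other interferon-induced proteins, was at 44.5, 38.8, 59.0 and 38.6 CPM (0.23 ± 0.30). Its TAK-931-2 value lay just under both vehicle values, and its difference was -0.11 without TAK-931-1.

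**Figure D2:**
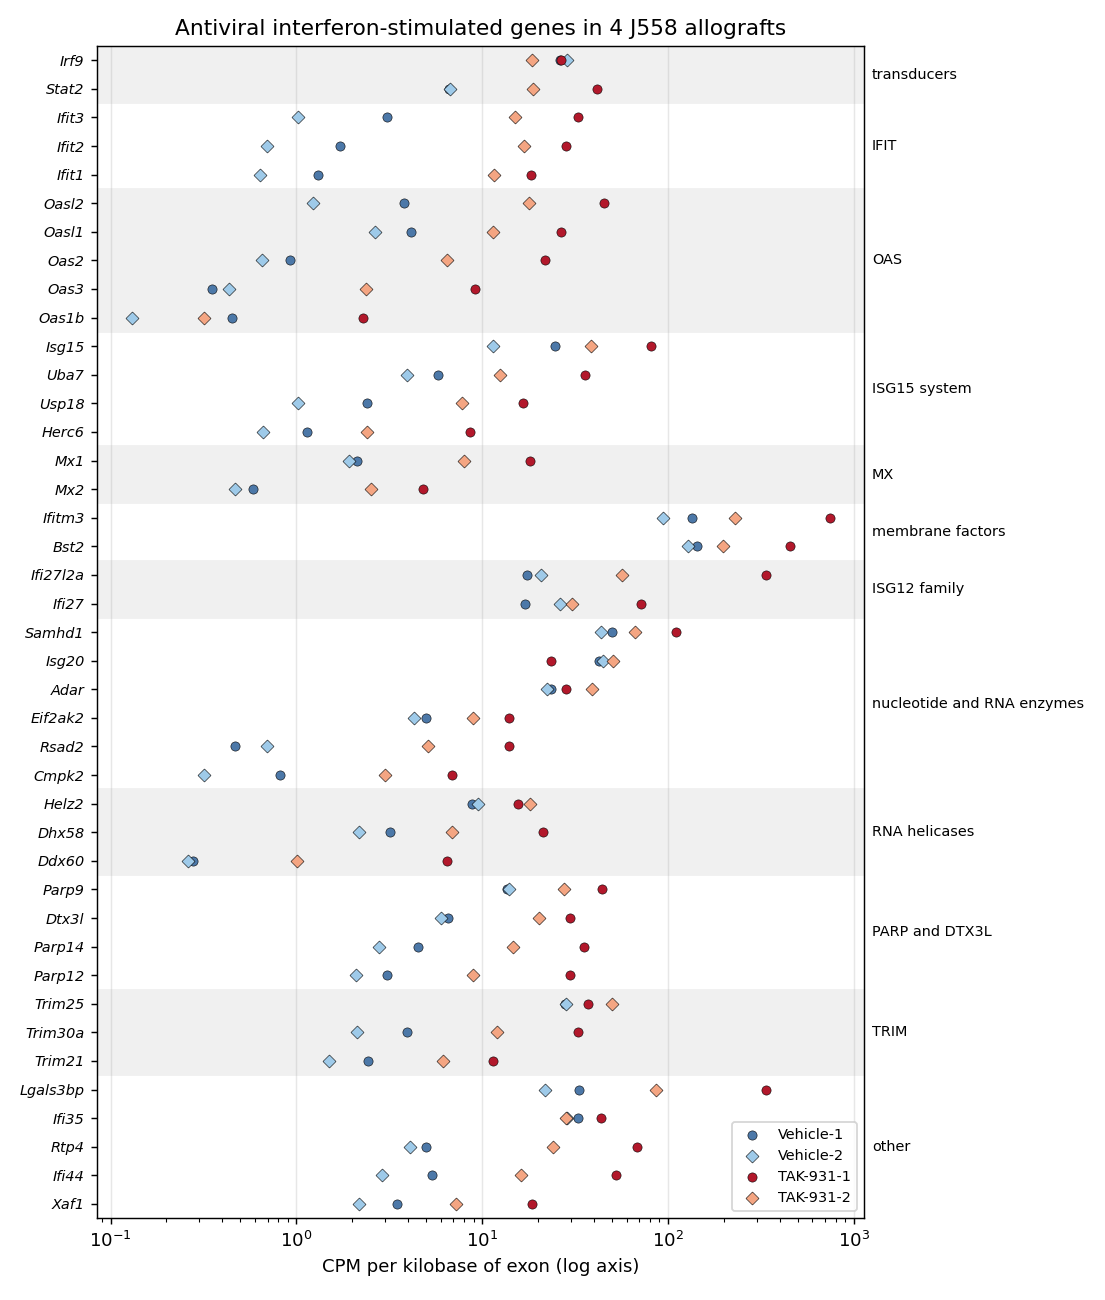
Level of the 41 tested genes in each library, in TMM-scaled CPM per kilobase of exon on a log axis, grouped by role, with circles for the first and diamonds for the second library of each group (blue, vehicle; red, TAK-931). Single values run from 0.131 CPM per kilobase (Oas1b in Vehicle-2) to 741 (Ifitm3 in TAK-931-1), and red symbols lie to the right of both blue ones for 37 genes, with Irf9, Oas1b, Isg20 and Ifi35 the exceptions.

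Scaled by exon length so that genes can be compared, the vehicle-treated tumours expressed these genes over a wide range. After Bst2 and Ifitm3 came Samhd1 (46.7 CPM per kilobase) and Isg20 (43.6), and at the bottom stood Ddx60 (0.269), Oas1b (0.291), Oas3 (0.392) and Mx2 (0.528). In the TAK-931-treated tumours the order at the top was Ifitm3 (485), Bst2 (325), Lgals3bp (212) and Ifi27l2a (196). Neighbours in these orders did not all differ beyond their spread: Ifitm3 and Bst2 overlapped in both groups, as the vehicle libraries of Ifitm3 were at 135 and 93.8 CPM per kilobase and those of Bst2 at 144 and 129.

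Many single differences were smaller without TAK-931-1. With that library left out, the log2 fold change moved by over 1.5 times for 18 of the 41 genes. It came to 1.89 for Ddx60, 1.97 for Ifi44, 1.79 for Parp12, 1.64 for Lgals3bp and 1.57 for Ifi27l2a, against 2.89 or more for each with both treated libraries. For Herc6 it was 1.40, for Dhx58 and Xaf1 1.36, for Uba7 1.35, for Isg15 1.10, for Ifitm3 0.99, for Bst2 0.53, for Samhd1 0.51, for Ifi27 0.50 and for Oas1b 0.12, all smaller than with both. Irf9 moved farther from 0, to -0.57, and Isg20 and Ifi35 changed sign. Without TAK-931-2 the value moved as much for 5 genes, to 0.29 for Adar, 0.39 for Trim25, 0.48 for Ifi35, -0.07 for Irf9 and -0.92 for Isg20. Leaving out Vehicle-1 moved Oas1b to 3.27, and leaving out Vehicle-2 moved Ifi35 to 0.11.

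Genes with fewer reads in the vehicle-treated tumours had the greater fold changes. The 20 genes under 10 CPM in the vehicle mean had a median log2 fold change of 3.0 (2.15 to 4.23), and the 21 genes at or over 10 CPM had 1.38 (-0.28 to 3.36). All tested genes showed the same order at lower values, 1.05 under 10 CPM and -0.18 at or over it. Across the 41 genes, the vehicle mean (log2 CPM) and the fold change had a Spearman's rho of -0.731 and a Pearson's r of -0.736, against a rho of -0.468 across all tested genes. These are descriptions across genes, which share libraries, and the vehicle values enter both measures.

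The treated tumours differed in how far the genes stood above vehicle. Set against the vehicle mean, the genes had a median log2 ratio of 2.98 for TAK-931-1 and of 1.67 for TAK-931-2, where all tested genes had -0.02 and -0.01. TAK-931-2 alone was above both vehicle libraries for 38 of the 41 genes (background 42.3%), and TAK-931-1 for 39 (background 46.1%). TAK-931-1 was above TAK-931-2 for 37 of the 41 (90.2%, against 50.4% of all tested genes), by a median of 2.30-fold, and the 4 genes higher in TAK-931-2 were Isg20, Adar, Trim25 and Helz2. With disjoint libraries paired, so that no control was shared, the log2 ratio TAK-931-1/Vehicle-1 correlated with TAK-931-2/Vehicle-2 at an r of 0.771 and a rho of 0.831 across the 41 genes, and the other pairing gave 0.755 and 0.839. The vehicle tumours were not equal either: Vehicle-1 was above Vehicle-2 for 31 of 41 (75.6%, against 48.8%), by a median log2 ratio of 0.48, and by over 2-fold for 8 genes.

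**Figure D3:**
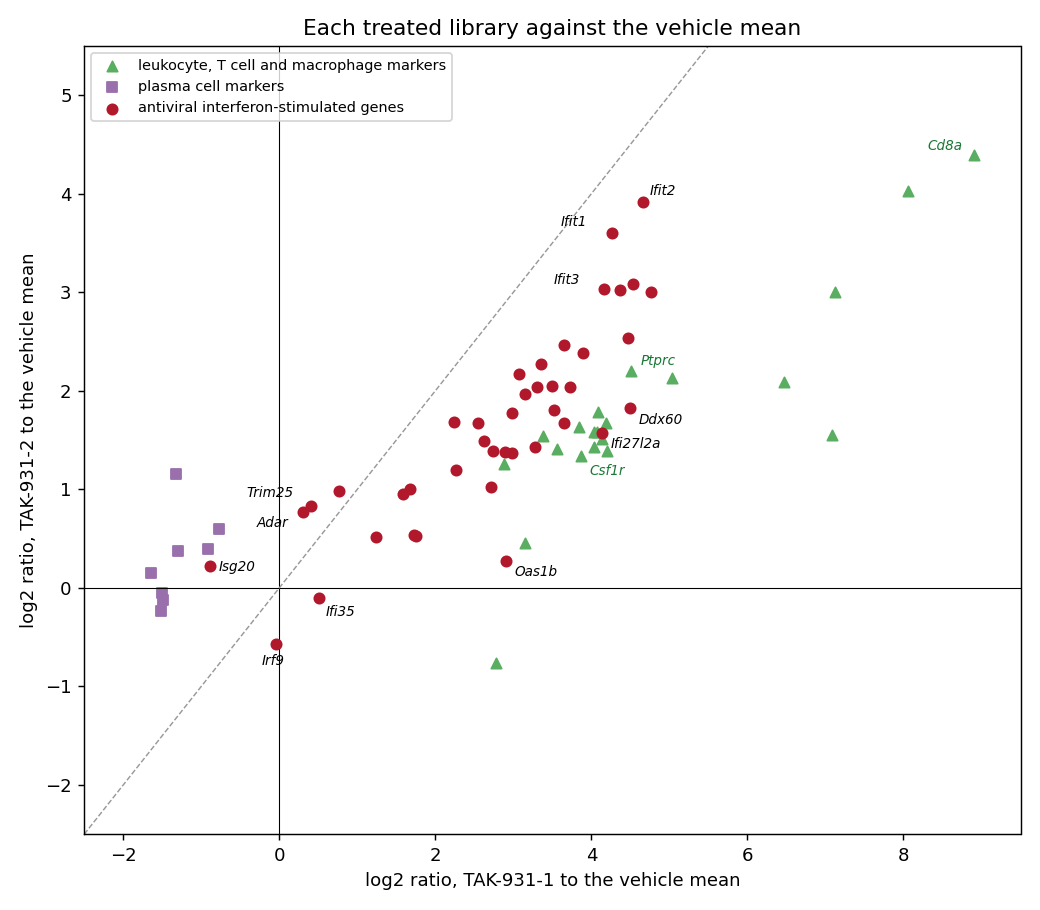
Log2 ratio of each treated library to the mean of the vehicle libraries, TAK-931-1 on the horizontal and TAK-931-2 on the vertical axis, for the 41 interferon-stimulated genes (red circles), leukocyte, T cell and macrophage markers (green triangles) and plasma cell markers (purple squares), with a dashed line where both ratios are equal. All but 4 red points lie below the line, with medians of 2.98 and 1.67. Ptprc (4.51 and 2.20) also lies below it, and the plasma cell genes lie above it. The median log2 ratio of TAK-931-1 to TAK-931-2 is 1.20 for the red points. It is 4.08 for T cell markers and 2.50 for monocyte and macrophage markers. Single genes overlap, with a ratio of 1.62 for the macrophage marker Ly6c2 and 2.66 for Ddx60.

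Leukocyte markers also differed between the groups, in other proportions: both treated tumours were above both vehicle tumours for Ptprc, for 8 of 8 T cell, 11 of 12 monocyte and macrophage, 4 of 5 dendritic cell, 3 of 4 NK cell and 1 of 3 tested neutrophil genes (background 30.0%). Ptprc (CD45), carried by all leukocytes, was at 36.6, 20.8, 633 and 128 CPM, and Csf1r, the macrophage growth factor receptor, at 42.5, 38.2, 588 and 102 CPM. TAK-931-1 exceeded TAK-931-2 by a ratio of 4.96 for Ptprc and 5.77 for Csf1r, and 38 of the 41 genes were below each. The median of this ratio was 2.30 for the interferon-stimulated genes (0.460 to 7.22) and 1.68 for the IFIT group, where it was 16.9 for T cell markers, 5.67 for monocyte and macrophage markers, 2.97 for fibroblast markers, 2.46 for NK cell markers and 0.376 for plasma cell markers. The summed level of the 41 genes was 1415, 1253, 5481 and 2750 CPM in Vehicle-1, Vehicle-2, TAK-931-1 and TAK-931-2, and per CPM of Ptprc it came to 38.6, 60.3, 8.66 and 21.6. This sum, weighted to genes of high level such as Samhd1, was thus lower per unit of Ptprc in both treated than in both vehicle tumours. Single genes did not all do so. Against the vehicle mean, the log2 ratio of Ptprc was 4.51 for TAK-931-1 and 2.20 for TAK-931-2. The median of the 41 genes was 2.98 and 1.67, and that of the IFIT group was 4.26 and 3.60, above Ptprc in TAK-931-2. Which cells held the transcripts was not tested.

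Other genes of the pathway were taken from another list, also of 43 genes, of which 23 were tested, 9 higher (39.1%, background 11.6%) and 1 lower (background 6.55%) at an unadjusted p under 0.05, with a median log2 fold change of 0.76. As over all tested genes, 0 genes of this list or of the 2 lists after it passed an adjusted p of 0.05 by edgeR. The type I ligands were nearly without reads: 14 of 18 had 0 counts in every library, and the others were Ifnb1 with 6 counts in Vehicle-1, Ifnab with 2 in TAK-931-1, Ifnk with 2 in Vehicle-1 and 2 in TAK-931-2, and Ifna2 with 1 in TAK-931-2. None was testable, and a difference in ligand RNA was not detectable at this depth. Ifnl2 and Ifnl3 also had 0 counts, so Ifng, the gene of interferon gamma, was the only ligand tested, at 1.90, 0.120, 27.2 and 6.53 CPM (4.05 ± 1.46). Markers of plasmacytoid dendritic cells, which can make much type I interferon, did not move one way: the 4 genes summed to 64.8, 61.4, 40.1 and 57.0 CPM, Siglech was at 1.66, 0.959, 5.16 and 2.10 CPM, and Cox6a2, which muscle also expresses, was at 49.9, 42.7, 17.3 and 24.7 CPM and lower at an unadjusted p under 0.05. Ccr9 and Pacsin1 were at 0.830, 0, 5.16 and 1.98 CPM and 12.3, 17.7, 12.4 and 28.2 CPM.

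Of 6 receptor genes, 0 reached an unadjusted p under 0.05 (background 11.6% higher and 6.55% lower, so a count of 0 among so few genes is near the background), and 4 had both treated tumours above both vehicle tumours (background 30.0%). Ifnar1 was at 142, 126, 184 and 201 CPM (0.52 ± 0.22) and Ifnar2 at 104, 92.5, 221 and 110.4 CPM (0.76 ± 0.40), the chains of the type I receptor. For Ifngr1, a chain of the interferon gamma receptor, the level was 29.5, 29.9, 188 and 34.2 CPM, with TAK-931-1 alone far above the rest. Ifngr2, Il10rb and Ifnlr1 had differences of 0.86 ± 0.34, 0.37 ± 0.32 and -0.38 ± 0.85.

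Among the kinases, 2 of 3 were higher at an unadjusted p under 0.05 (background 11.6%). These were Tyk2, at 52.7, 54.7, 92.1 and 111 CPM (0.92 ± 0.22), and Jak1, at 30.3, 26.4, 263 and 52.2 CPM (2.47 ± 0.83). Jak2 was at 92.1, 74.7, 103 and 94.1 CPM (0.24 ± 0.22). The treated tumours were near each other for Tyk2, whereas Jak1 was far higher in TAK-931-1. Of 7 factors, 3 were higher at that threshold (background 11.6%). Irf7, which drives interferon alpha genes and is itself interferon-induced, was at 62.5, 51.8, 569 and 155 CPM (2.66 ± 0.70). Irf1, an interferon-induced factor, was at 68.1, 53.4, 261 and 140.4 CPM (1.72 ± 0.39), and Irf8, a factor of myeloid and B cells, at 34.6, 12.3, 301 and 83.3 CPM (3.03 ± 0.87). Irf5, Stat3, Irf2 and Irf3 had differences of 0.97 ± 0.47, 0.44 ± 0.28, 0.23 ± 0.23 and 0.12 ± 0.35. Of 6 inhibitors, 3 were higher (background 11.6%) and 1 was lower (background 6.55%) at the same threshold. The higher ones were Socs1 and Socs3, feedback inhibitors of the JAK kinases, at 10.6, 7.67, 31.9 and 24.9 CPM (1.64 ± 0.35) and 42.7, 38.7, 106 and 108 CPM (1.40 ± 0.20), and the phosphatase Ptpn6 at 277, 291, 449 and 446 CPM (0.66 ± 0.22). The treated tumours were near each other for Socs3 and Ptpn6. The phosphatase Ptpn2 was the lower one, at 131, 132, 46.3 and 68.4 CPM (-1.20 ± 0.28), with both treated tumours under both vehicle tumours. Pias1 and Cish had differences of 0.08 ± 0.24 and 0.10 ± 0.49.

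**Figure D4:**
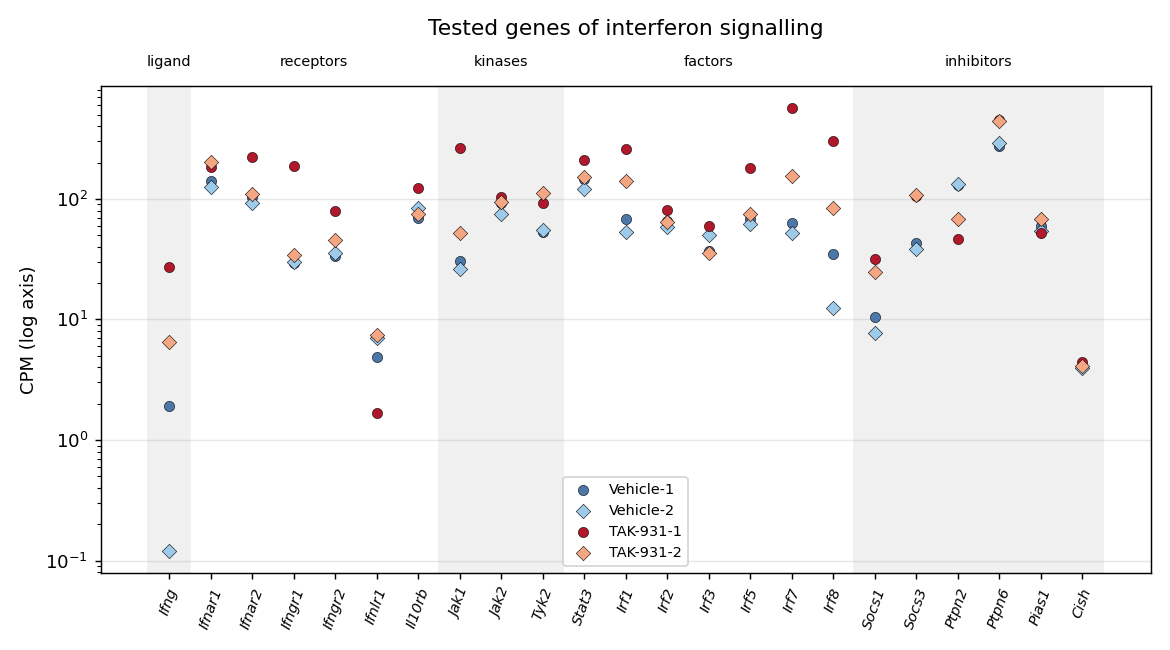
Level of the 23 tested genes of interferon signalling in each library (TMM-scaled CPM on a log axis), from the ligand Ifng through receptors, kinases and factors to inhibitors, with circles for the first and diamonds for the second library of each group (blue, vehicle; red, TAK-931). The groups are apart, with TAK-931 higher, for 17 genes such as Irf1, Irf7 and Tyk2 (background 30.0%), and with TAK-931 lower for Ptpn2 (background 32.7%).

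Other interferon-stimulated genes outside the 43 stood higher as well. Of 44 tested, 26 were higher (59.1%, background 11.6%) and 0 lower (background 6.55%) at an unadjusted p under 0.05, with a median log2 fold change of 2.11. Those with the highest mean CPM, which is not corrected for length, were Ly6e, at 904, 818, 1620.3 and 1477 CPM (0.85 ± 0.23), Tapbp, a loader of MHC class I, at 293, 261, 726 and 455 CPM (1.09 ± 0.32), and Shisa5 at 67.7, 69.8, 411 and 184 CPM (2.11 ± 0.46). Of 24 tested genes linked to interferon gamma, 12 were higher (background 11.6%) and 0 lower (background 6.55%), 23 had groups apart with TAK-931 higher (background 30.0%), and the median was 2.71. Highest among these by the same measure were the immunoproteasome subunit Psmb8, at 270.2, 243, 533 and 318 CPM (0.73 ± 0.34), the T cell chemokine Cxcl9, at 107, 4.08, 622 and 235 CPM (2.94 ± 1.56), and the peptide transporter Tap1, at 117, 98.7, 518 and 180.1 CPM (1.70 ± 0.57).

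The lists stood farther apart in the vehicle pair than in the TAK-931 pair. Vehicle-1 was above Vehicle-2 for 24 of 24 interferon gamma-linked genes (48.8% of all tested genes), by a median log2 ratio of 2.03, where the antiviral genes had 0.48 and the other interferon-stimulated genes 0.41. Cxcl9 was among those far higher in Vehicle-1, and the ligand gene Ifng, which is not on that list, was higher there too. Between the treated tumours, the medians were close to one another, 1.38 for the interferon gamma-linked genes, 1.20 for the antiviral genes and 1.30 for the other interferon-stimulated genes. These lists share libraries and were written with the results known, and the differences between them were not tested.

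**Figure D5:**
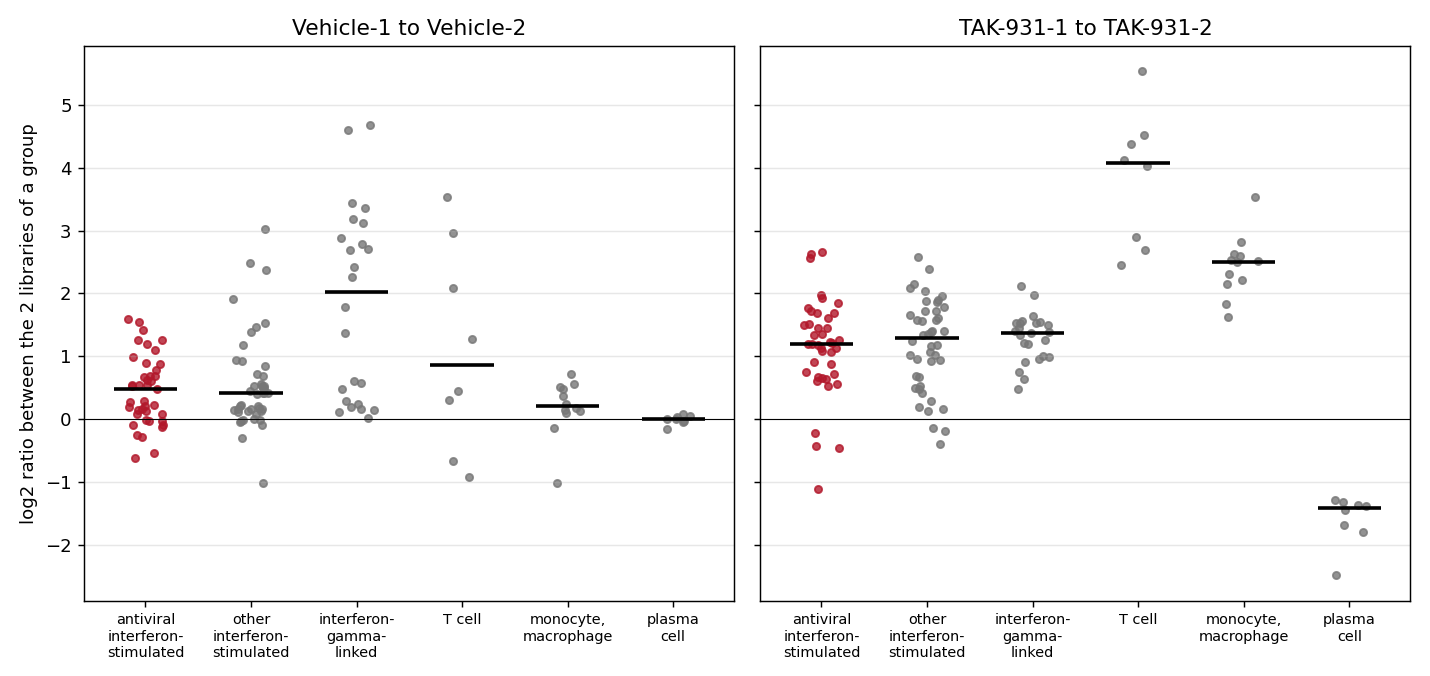
Log2 ratio between the libraries of a group, Vehicle-1 to Vehicle-2 (left) and TAK-931-1 to TAK-931-2 (right), for each tested gene of 6 lists, with a bar at the median of each list. On the left the medians are 0.48 for the antiviral genes (red) and 2.03 for the interferon gamma-linked genes, and on the right they are 1.20 and 1.38, against 4.08 for T cell and -1.41 for plasma cell markers.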

How the data were processed

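RNA from 4 J558 allografts, 2 per group, was sequenced. For each library the authors deposited a gene table of raw read counts, not normalized, with a second numeric column of another kind, the summed exon length in bases. The submitters' processing notes name STAR 2.6.1c, featureCounts and mm10, and the column names speak of uniquely placed reads. The strand setting and the annotation are not given in the sources used here, so reads of close paralogs, and of genes that overlap on opposite strands, could not be assigned with certainty. Groups came from the labels.

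The filter was filterByExpr (edgeR 4.0.16, at a minimum count of 10). It kept 13669 genes, and libraries were scaled by TMM. TAK-931 was compared with vehicle by the robust quasi-likelihood test in a two-sided model of treatment alone, with Benjamini-Hochberg adjustment over all tested genes at 0.05 (R 4.3.3). The standard error of a log2 fold change was its size divided by the square root of the F statistic. Log2 ratios between libraries used a prior count of 2. Levels per kilobase divide CPM by the exon length.

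The genes, the role groups, the other lists and the alternatives were chosen with earlier results of these data known. All 43 genes are named, with all 4 values wherever a gene led its role group, overlapped between groups, was negative or was called by any fit, and of the other lists the pathway genes and the 3 genes of highest mean CPM each. Alternatives were scaling by library size only or by median-of-ratios size factors, no count filter or a stricter one of at least 10 counts per library, DESeq2 1.42.0, limma-voom (limma 3.58.1), no robust estimation, a replicate block, halved counts, each library left out in turn, an adjusted p under 0.01 and a prior count of 0.5. The 11 genes without a RefSeq promoter entry were not searched for motifs. Some genes are not reported here.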

Additional observations from a re-analysis of the deposited data

How the results depend on the processing

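With the main test, 0 of the 41 tested genes were called at an adjusted p under 0.05, and median-of-ratios or plain library size scaling, the other count filters, limma-voom, halved counts, no robust estimation and an adjusted p under 0.01 also called 0. DESeq2 called 32 higher (background 9.21%). The fit with the replicate number as a replicate block called 10 higher (background 1.03%): Ifi44, Ifit1, Ifit2, Ifit3, Oas2, Oasl2, Parp12, Parp14, Rtp4 and Trim30a. The labels give no origin for the numbers, and the deviations of same-numbered libraries had r = 0.004 over all tested genes and 0.22 over the 41, so a pairing was not established. With 1 library left out, 0 to 39 genes were called higher and 0 to 1 lower, 0 without either vehicle library, 32 without TAK-931-1 and 39 without TAK-931-2. Genes higher at an unadjusted p under 0.05 numbered 24 to 39 with 1 library left out (background 6.50% to 31.1%) and 29 to 36 under the other fits (background 6.04% to 17.2%), against 34 (background 11.6%). The median log2 fold change ranged from 1.64 to 2.95 with 1 library left out. Signs reversed without TAK-931-1 for Isg20 (0.22, and -0.92 without TAK-931-2) and Ifi35 (-0.11, and 0.48 without TAK-931-2), and for no other gene or alternative. The causes were not tested. At this depth the type I ligands, Oas1a and Oas1g had too few counts to be tested, and Oas1b had the fewest counts of the tested genes.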
